A study of Mus musculus with 2 samples.

Results

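Heat shock proteins and their cochaperones were examined in mouse bone marrow-derived macrophages (BMDMs) that had been kept for 1 hr with the supernatant of apoptotic cells or with medium. The set comprised 10 genes, chosen with earlier results of these data known. They were Hspa1b, Hspa1a, Hspa8, Hsph1, Dnajb1, Hsp90aa1, Hsp90ab1, Hspa5, Hspd1 and Hspe1. On the array 9 of them had a probe set, that is, a group of probes for a transcript, which the annotation assigns to that gene alone, out of 18194 genes named in this way. Hsp90ab1 had none and was not analysed here. Both conditions used BMDMs of female C57BL/6J mice aged 8 weeks, grown with M-CSF for more than 7 days, and each condition was read on 1 array. For the first condition, W3 cells, a mouse T cell line carrying Fas, were given Fas ligand for 30 min and kept for another 60 min in RPMI with 1% FCS before their supernatant was taken. For the second, the labels' growth protocol names RPMI with 10% FCS as the medium. If both descriptions hold, the serum content differed between the conditions, and serum and W3 cell products cannot be told apart. The supernatant of living W3 cells was not analysed here.

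Heat shock proteins are chaperones that keep other proteins folded. Cytosolic Hsp70 binds unfolded stretches of proteins and releases them with the help of ATP, of Hsp40 partners that stimulate its ATPase and of Hsp110 proteins that exchange its nucleotide, and it passes some clients on to Hsp90. Some of these genes are expressed at all times, while others are transcribed mainly when heat shock factor 1 (HSF1) binds heat shock elements in their promoters during heat or other proteotoxic stress. The endoplasmic reticulum (ER) and the mitochondria have chaperones of their own, which respond to unfolded proteins in those compartments.

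The values were MAS5 signals, intensities on a linear scale, for 45101 probe sets. Both arrays had a mean of 500.0 once the highest and lowest 2% of probe sets were left out, and the median signal was 49.3 with the supernatant and 53.0 with medium. Signals under 38.4, a floor taken from 80 probe sets of olfactory and vomeronasal receptors, were set to the floor. A gene was represented by its brightest probe set, and the 11977 genes that exceeded the floor with the supernatant, with medium or with both are called measured. The median of their log2 ratios (supernatant over medium) was -0.02, with a 5th percentile of -0.55 and a 95th percentile of 0.50. The 3′ to 5′ signal ratio of the control probe sets was 0.964 with the supernatant and 0.969 with medium for Gapdh, and 1.21 with the supernatant and 1.16 with medium for Actb. With 1 array per condition no difference has a replicate, an SD or a p-value, and precision is limited by the number of arrays. The spread between probe sets of the same gene was used as the only available yardstick. The log2 ratio had an SD of 0.25 per probe set over 5196 genes with 2 or more probe sets above the floor, which covers neither biological nor array-to-array error.

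The stress-inducible Hsp70 genes Hspa1b and Hspa1a were brighter on the array of the apoptotic cell supernatant than on that of medium. Hspa1b, which encodes the Hsp70 that is made on demand in stressed cells, read 2406 with the supernatant and 876 with medium on its brightest probe set, 2.75-fold higher. The second Hspa1b probe set read 1155 with the supernatant and 468 with medium, 2.47-fold higher, and the third read 765 with the supernatant and 302 with medium, 2.53-fold higher. All 3 probe sets of Hspa1b thus lay on the same side, and their log2 ratios ranged from 1.30 to 1.46, with an SD of 0.08 over probe sets. Hspa1a, its neighbour and near-identical copy, had 1 probe set, which read 520 with the supernatant and 281 with medium, 1.85-fold higher. The log2 ratio of the Hspa1a probe set was 0.89, which is 0.57 below that of the brightest Hspa1b probe set. The transcripts of the pair are so alike that a probe set given to one of them may read both, and how much each contributes was not tested.

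In ratio, 45 of the 11977 measured genes exceeded Hspa1b and 166 exceeded Hspa1a. The gene next to Hspa1b on the other side, Neu1, which encodes a lysosomal sialidase, read 1052 with the supernatant and 977 with medium. Hspa1l, the Hsp70 gene that follows Hspa1a and is known for its expression in testis, was under the floor on both arrays, at 7.1 with the supernatant and 22.2 with medium.

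**Figure D1:**
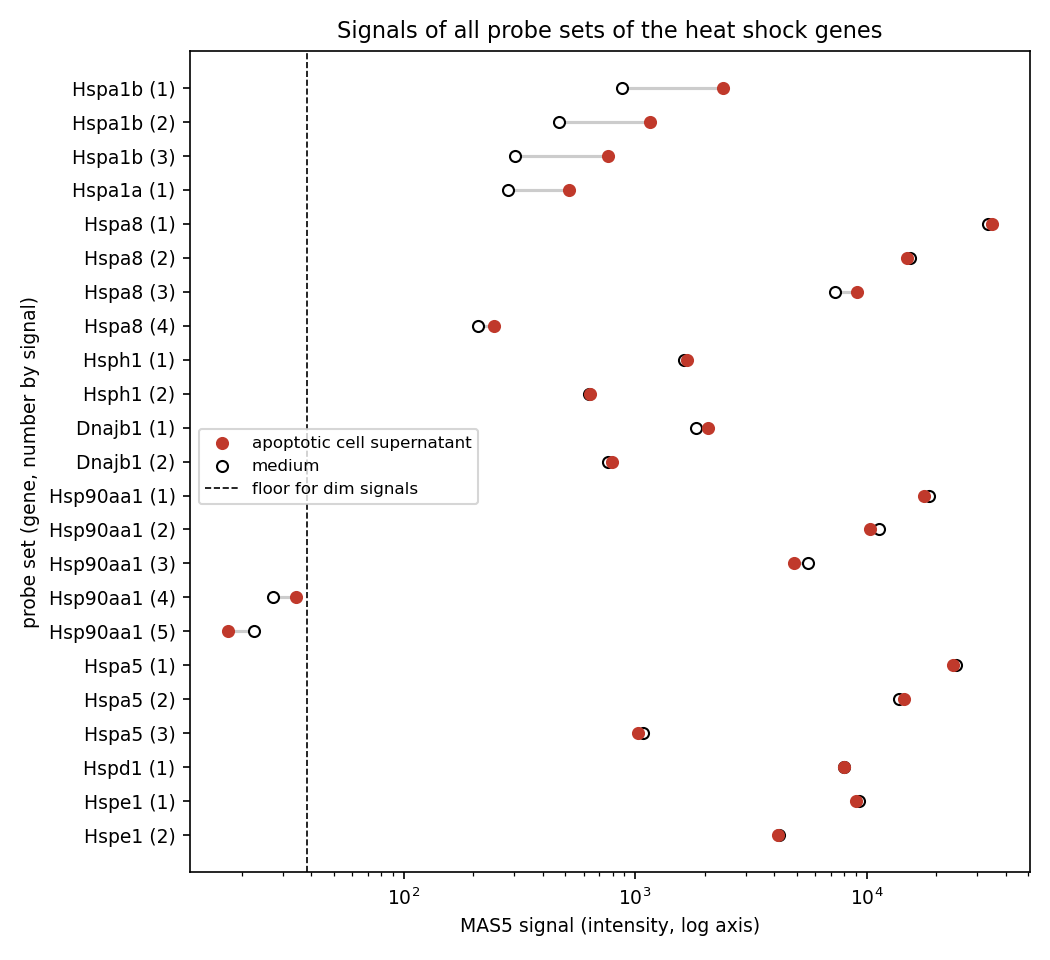
MAS5 signal (intensity, log axis) of each of the 23 probe sets of the heat shock genes, with apoptotic cell supernatant (filled circles) and medium (open circles), 1 array each. The dashed line is the floor of 38.4. The circles of Hspa1b and Hspa1a lie apart, those of the other genes lie close together, and 2 probe sets of Hsp90aa1 are left of the floor.

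The promoters of Hspa1b and Hspa1a are shown because these are the members whose signals differed most between the arrays. The sequences are RefSeq's for mouse build GRCm38.p6 and run from 250 bases before to 50 bases after the start of the gene. Capitals mark the heat shock element, searched as GAANNTTC or TTCNNGAA, each of which reads the same on both strands.
Hspa1b promoter, chr17:34959189-34959488, minus strand: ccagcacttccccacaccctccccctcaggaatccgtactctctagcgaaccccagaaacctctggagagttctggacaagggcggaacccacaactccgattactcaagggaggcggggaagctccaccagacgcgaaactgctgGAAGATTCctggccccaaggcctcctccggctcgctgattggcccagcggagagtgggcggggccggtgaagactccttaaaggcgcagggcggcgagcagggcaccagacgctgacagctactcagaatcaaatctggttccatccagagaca
Hspa1a promoter, chr17:34972107-34972406, minus strand: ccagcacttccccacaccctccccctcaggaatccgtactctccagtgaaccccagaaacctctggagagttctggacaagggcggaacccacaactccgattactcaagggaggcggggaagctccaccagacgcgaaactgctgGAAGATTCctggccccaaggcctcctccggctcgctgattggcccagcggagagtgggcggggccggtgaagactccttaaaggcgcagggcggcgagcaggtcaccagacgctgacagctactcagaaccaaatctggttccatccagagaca
The 2 promoters were identical at 296 of 300 bases (98.7%). Each held 1 match, GAAGATTC, which started 104 bases before the gene. Of all 32851 promoter windows of this length 15.1% held a match, so that a match is a description and not evidence of a site.

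On their brightest probe sets the constitutive cytosolic Hsp70 and its partners had nearly the same signals with the supernatant and with medium. Hspa8 encodes Hsc70, the Hsp70 present in unstressed cells. Its brightest probe set read 34671 with the supernatant and 33453 with medium, a ratio of 1.04. The second Hspa8 probe set read 14903 with the supernatant and 15409 with medium, the third 9107 with the supernatant and 7315 with medium, and the dimmest 246 with the supernatant and 210 with medium. These probe sets did not all lie on the same side, since 3 were higher with the supernatant and 1 was lower. The largest Hspa8 ratio was 1.25, on the third, a log2 ratio of 0.32 that lay beyond the SD of 0.25 between probe sets.

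Hsph1, which encodes the Hsp110 protein that reloads Hsp70 with ATP, read 1669 with the supernatant and 1623 with medium on one probe set. Its other probe set read 638 with the supernatant and 635 with medium, so the Hsph1 log2 ratios were 0.04 and 0.01. Dnajb1, the Hsp40 partner that delivers substrates to Hsp70 and stimulates its ATPase, read 2057 with the supernatant and 1832 with medium on the brighter of its 2 probe sets, a ratio of 1.12. The dimmer Dnajb1 probe set read 792 with the supernatant and 761 with medium, a ratio of 1.04. Hsph1 and Dnajb1 are themselves heat-inducible in many cell types, and here both were within 1.5-fold. The Hsph1 ratios lay within the spread between probe sets of one gene, also within the SD of 0.10 found over 1160 genes with probe sets over 1000 on both arrays. The log2 ratios of 0.17 of the brighter Dnajb1 probe set and 0.32 of the third Hspa8 probe set lay beyond that SD.

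Hsp90aa1 encodes the heat-inducible form of cytosolic Hsp90, the chaperone of kinases and steroid receptors. It read 17725 with the supernatant and 18530 with medium on its brightest probe set, a log2 ratio of -0.06. The next Hsp90aa1 probe set read 10377 with the supernatant and 11301 with medium, and the third 4875 with the supernatant and 5566 with medium. All 3 were lower with the supernatant, with log2 ratios between -0.19 and -0.06. The other 2 probe sets of Hsp90aa1 stayed under the floor in both conditions, with signals of 34.4 and 17.5 with the supernatant and 27.4 and 22.6 with medium, and give no ratio.

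The chaperones of the ER and the mitochondria were alike in both conditions. Hspa5, which encodes BiP, the Hsp70 of the ER, read 23610 with the supernatant and 24219 with medium on its brightest probe set. The second Hspa5 probe set read 14550 with the supernatant and 13873 with medium, and the third read 1034 with the supernatant and 1079 with medium. Their log2 ratios of -0.04, 0.07 and -0.06 lay on both sides of 0.

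Hspd1, which encodes the mitochondrial chaperonin Hsp60, read 7973 with the supernatant and 8008 with medium on its only probe set. Hspe1, which encodes Hsp10, the lid of the Hsp60 chamber, read 9009 with the supernatant and 9259 with medium on one probe set and 4159 with the supernatant and 4195 with medium on the other. The Hspd1 log2 ratio was -0.01, and those of Hspe1 were -0.04 and -0.01.

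Of the 9 members measured, 1 (Hspa1b) was at least 2-fold higher with the supernatant, beside 0.96% of all measured genes, and 0 were at least 2-fold lower, beside 0.843%. At a 1.5-fold threshold 2 members (Hspa1b and Hspa1a) were higher, beside 3.71% of all measured genes, and 0 were lower, beside 4.47%. Over all measured genes the 2-fold counts were 115 higher and 101 lower, and this split became 145 and 74 with quantile normalization, 135 and 71 with loess and 127 and 87 with each array centred on its median. The median log2 ratio of the 9 members was 0.04. The Hspa1b log2 ratio exceeded the median of the other 8 members (0.02) by 1.44, and this difference lay between 1.26 and 1.44 under the 9 alternative ways of processing. Ratios were compared here and not levels, because signals of different probe sets are not on a common scale. Since the members were chosen with earlier results of these data known, the counts and the Hspa1b difference are descriptions.

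Outside the inducible pair, the 17 probe sets of the other 7 members above the floor had log2 ratios from -0.19 to 0.32, with 8 higher and 9 lower. On their brightest probe sets these 7 genes ranged from -0.06 (Hsp90aa1) to 0.17 (Dnajb1). All 7 of these probe sets had signals over 1000 on both arrays. Among the 4117 measured genes over that limit, which was chosen after the values were seen, the 5th percentile of the log2 ratio was -0.21 and the 95th was 0.24. On its brightest probe set each of the 7 lay between these values. The limit does not match the members in brightness, since Hspa8 read 34671 with the supernatant. The third Hspa8 probe set, at 9107 with the supernatant and 7315 with medium, had a log2 ratio of 0.32, above the 95th percentile.

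**Figure D2:**
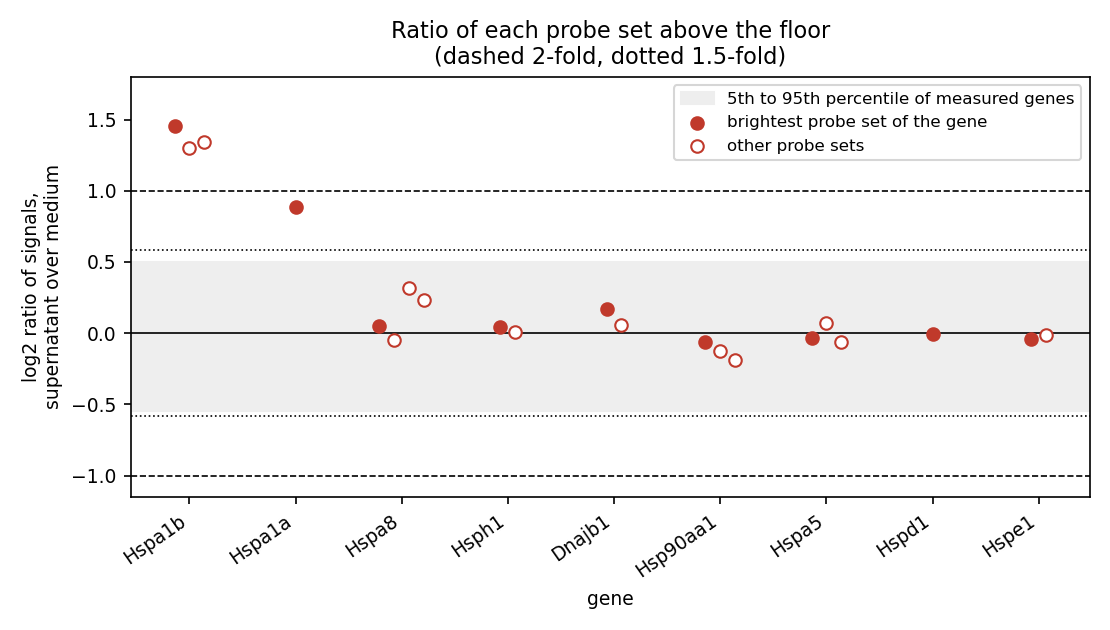
Log2 ratio of MAS5 signals, supernatant over medium, for each of the 21 probe sets of the heat shock genes above the floor, with the 5th to 95th percentile of all measured genes shaded and lines at a 2-fold (dashed) and 1.5-fold (dotted) difference. The 3 probe sets of Hspa1b lie above 1 and that of Hspa1a at 0.89, while the other 17 lie between -0.19 and 0.32.

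**Figure D3:**
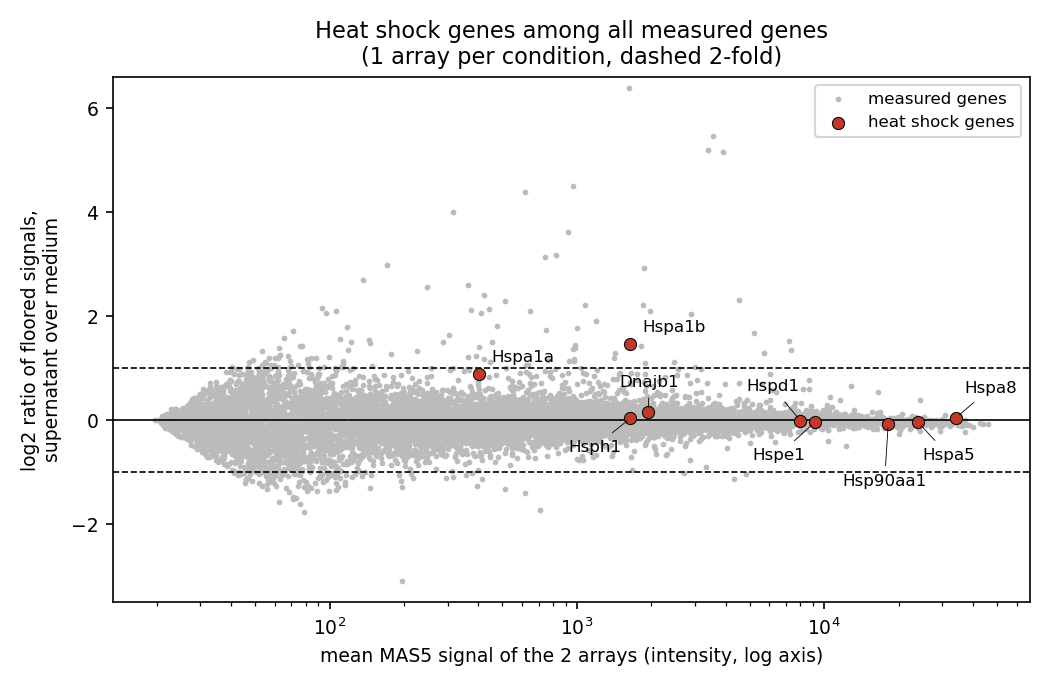
Log2 ratio (supernatant over medium, signals set to the floor where dimmer) against the mean MAS5 signal of the 2 arrays (log axis) for all 11977 measured genes (grey) and the 9 heat shock genes (red), each on its brightest probe set. The ratios of all genes spread less at high signals. Hspa1b stands above the band of most genes of its brightness. Hspa1a, at 0.89, lies above 0.50, the 95th percentile of all measured genes, and the other 7 lie near 0.

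A heat shock element was present in windows of the inducible pair and of Hsph1, Hspd1 and Hspe1, but not of Dnajb1 or Hspa5. RefSeq promoters were available for 7 of the 10 members, and 5 of them held the element, namely Hspa1b, Hspa1a, Hsph1, Hspd1 and Hspe1. Of all 27025 genes with a window 17% held it. Hspd1 and Hspe1 are divergent neighbours, and one of the 2 Hspd1 windows overlapped the Hspe1 window by 285 bases, so they share their elements and only that of Hspe1 is shown. The other Hspd1 window held no match. The Hsph1 and Hspe1 promoters are given because they carry 3 matches each. That of Hspa5 is given because it carries an ER stress element, CCAAT followed after 9 bases by CCACG. Capitals mark heat shock elements in Hsph1 and Hspe1, where neighbouring matches overlap, and the ER stress element in Hspa5.
Hsph1 promoter, chr5:149636287-149636586, minus strand: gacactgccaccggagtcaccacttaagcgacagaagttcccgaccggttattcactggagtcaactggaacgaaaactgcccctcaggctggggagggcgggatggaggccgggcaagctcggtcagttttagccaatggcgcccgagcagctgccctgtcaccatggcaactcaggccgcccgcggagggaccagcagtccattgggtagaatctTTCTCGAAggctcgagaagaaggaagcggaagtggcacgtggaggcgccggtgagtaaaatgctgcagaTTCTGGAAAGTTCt
Hspe1 promoter, chr1:55087898-55088197, plus strand: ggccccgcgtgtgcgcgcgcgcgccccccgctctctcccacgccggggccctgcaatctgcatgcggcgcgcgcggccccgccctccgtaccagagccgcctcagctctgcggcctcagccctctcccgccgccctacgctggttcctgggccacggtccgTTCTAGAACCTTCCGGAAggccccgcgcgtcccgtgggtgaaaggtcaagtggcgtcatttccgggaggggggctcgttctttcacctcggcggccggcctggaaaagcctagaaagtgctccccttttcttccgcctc
Hspa5 promoter, chr2:34771840-34772139, plus strand: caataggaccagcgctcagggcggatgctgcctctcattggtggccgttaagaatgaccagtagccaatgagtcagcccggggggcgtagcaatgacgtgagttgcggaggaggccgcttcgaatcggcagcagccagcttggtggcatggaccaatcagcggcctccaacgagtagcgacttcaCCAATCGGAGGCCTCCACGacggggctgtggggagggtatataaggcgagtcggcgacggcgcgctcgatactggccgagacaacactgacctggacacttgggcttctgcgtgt
In Hspe1 the matches formed an unbroken run that began 89 bases before the gene. In Hsph1 one match began 33 bases before the gene and 2 overlapping ones lay behind its start. The ER stress element, searched on both strands, began 65 bases before Hspa5 and was held by 0.119% of all windows. The cAMP response element TGACGTCA was in none of the 10 windows of members, beside 1.79% of all windows. These letters say nothing of whether a factor was bound, and the part of any element in the signal differences was not tested. Among 9747 measured genes with a promoter window, 3.49% were at least 1.5-fold higher and 4.23% lower, and among the 1361 of them with a heat shock element 3.82% were higher and 4.19% lower.

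The other genes of the chaperone network were compared through lists. The lists hold 124 chaperone and stress-response genes besides the members, 106 of them measured, and their median log2 ratio was -0.01. Of these 106 genes 0 were at least 2-fold higher or lower, beside 0.96% and 0.843% of all measured genes. At 1.5-fold 1 was higher and 1 lower, beside 3.71% and 4.47%. The higher one was Hspb2, a small heat shock protein known from muscle, at 65.1 with the supernatant and 30.6 with medium. The medium signal is under the floor, so the Hspb2 ratio is at least 1.70. The lower one was Hsf2bp, a germ cell protein that binds heat shock factor 2, at 20.3 with the supernatant and 60.2 with medium, at least 1.57-fold lower. Each rests on 1 probe set above the floor. These counts and those of the single lists below use each gene's brightest probe set, and dimmer probe sets of some genes were further apart. In lists this short few genes would be called at the shares over all measured genes, so a count of 0 is a description.

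In the Hsp70 and Hsp110 family 11 of 14 genes were measured, with a median log2 ratio of 0.07, and the 2 at least 1.5-fold higher were Hspa1b and Hspa1a. After them came Hspa4l, an Hsp110-type partner of Hsp70, which was singled out after its values were seen. On its brightest probe set Hspa4l read 641 with the supernatant and 482 with medium, a ratio of 1.33. Its other 4 probe sets had larger ratios. They read 403, 522, 418 and 184 with the supernatant and, in the same order, 273, 246, 227 and 81.6 with medium. All 5 probe sets of Hspa4l were thus higher with the supernatant, with log2 ratios from 0.41 to 1.18, and the mean of their log2 signals corresponded to a 1.77-fold higher signal.

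In the list of Hsp90 and its cochaperones 15 of 19 genes were measured and 0 were 1.5-fold apart on the brightest probe set, with a median log2 ratio of -0.05. On that probe set the genes farthest from 0 were Fkbp5 and Cacybp. Fkbp5, an immunophilin of steroid receptor complexes, read 1337 with the supernatant and 1554 with medium. Cacybp, a binding partner of the ubiquitin ligase Siah, read 7022 with the supernatant and 7462 with medium. Cdc37l1 read 439.4 with the supernatant and 446.5 with medium on its brightest probe set, but 290.5 and 448.4 on another, a ratio of 0.648. Its 6 probe sets above the floor had log2 ratios from -1.22 to 0.30, and both ends have 1 signal under the floor. Among the Hsp40 genes 18 of 19 were measured and 0 were 1.5-fold apart, with log2 ratios from -0.32 (Dnajb12, an Hsp40 of the ER membrane, 259 with the supernatant and 323 with medium) to 0.25. Dnajc21, an Hsp40 of ribosome assembly, read 618 with the supernatant and 741 with medium on its brightest probe set, but 669 with the supernatant and 555 with medium on its next, so that its probe sets lay on opposite sides.

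All 6 BAG genes, whose proteins release substrates from Hsp70, were measured and 0 were 1.5-fold apart. Bag3, a nucleotide exchange factor that HSF1 is known to induce, read 1508 with the supernatant and 1787 with medium, a log2 ratio of -0.24, and Bag6 read 856 with the supernatant and 745 with medium. Of 10 small heat shock proteins 5 were measured, with a median log2 ratio of -0.25. Hspb1, the small heat shock protein Hsp27 that is strongly heat-inducible in many cells, read 53.1 with the supernatant and 71.3 with medium, just above the floor.

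The 14 genes of the chaperonin TRiC, which folds actin and tubulin, and of its partner prefoldin were all measured. On the brightest probe set 0 were 1.5-fold apart (median log2 ratio 0.01). The farthest from 0 there were Pfdn1, at 1824 with the supernatant and 2274 with medium, and Pfdn6, at 2566 with the supernatant and 2818 with medium. A dim probe set of Cct4 read 139 with the supernatant and 17.3 with medium, at least 3.63-fold higher. Its other probe sets above the floor had log2 ratios from -0.03 to 0.12. Among 13 measured mitochondrial chaperones and proteases, the list that holds Hspd1 and Hspe1, 0 were 1.5-fold apart and the median was -0.03. Afg3l2, a subunit of an inner membrane protease, read 656 with the supernatant and 541 with medium, and Clpx, the unfoldase of a matrix protease, read 977 with the supernatant and 834 with medium. All 30 genes of the ER and unfolded protein response list, to which Hspa5 belongs, were measured, and 0 were 1.5-fold apart (median 0.01). Atf4, the transcription factor of the integrated stress response, read 2352 with the supernatant and 3169 with medium, a log2 ratio of -0.43. Trib3, a pseudokinase, read 206 with the supernatant and 275 with medium, a log2 ratio of -0.42. These 2 genes were the farthest from 0 in a list that ran up to 0.37, for Pdia4.

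Of 23 genes taken as HSF1 targets, 9 of which are members, 19 were measured. Among these 19, Hspa1b and Hspa1a, both already counted as members, were at least 1.5-fold higher on the brightest probe set, beside 3.71% of all measured genes. In the other direction 0 were lower, beside 4.47%, and the median was -0.04. Hspa4l is on this list too, and the count of higher genes became 3 when the log2 signals of all probe sets were averaged and with only the probe sets that carry no suffix. In the list of heat shock factors Hsf2 read 253 with the supernatant and 301 with medium, Hsbp1, an inhibitor of HSF1, read 7216 with the supernatant and 7363 with medium, and Hsf4 and Hsf5 were under the floor on both arrays. Hsf1 had no probe set of its own name in the annotation and was not analysed here. For reference, 0 of 10 measured NRF2 target genes, which mark oxidative stress, were 1.5-fold apart (median -0.07). The farthest from 0 were Nqo1, a quinone reductase, at 236 with the supernatant and 296 with medium, and Slc7a11, the cystine transporter, at 60.1 with the supernatant and 74.1 with medium. Likewise 0 of 12 housekeeping genes were 1.5-fold apart (median -0.06), with log2 ratios from -0.12, for Pgk1 and Tbp, to 0.05.

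**Figure D4:**
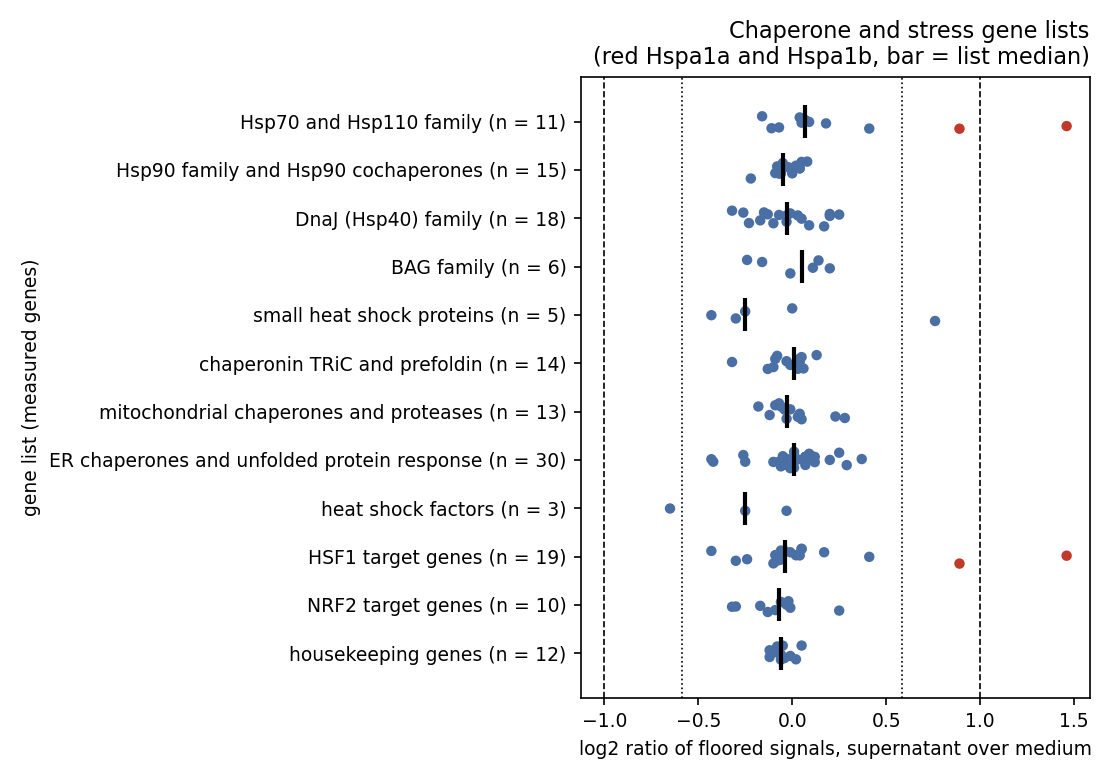
Log2 ratio (supernatant over medium, signals set to the floor where dimmer) of the measured genes (points) in 12 lists, each on its brightest probe set. Other probe sets of Hspa4l, not drawn, reach 1.18. Black bars are list medians, with lines at a 2-fold (dashed) and 1.5-fold (dotted) difference. Hspa1b (1.46) and Hspa1a (0.89), in red, lie to the right of all other genes, and the list medians run from -0.25 to 0.07.

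Markers of macrophages and of the T cell line that supplied the supernatant were read on the same arrays. All 12 macrophage markers were above the floor, with a median log2 ratio of -0.03. One of them was at least 1.5-fold apart, the phagocytic receptor gene Mertk, at 1050.0 with the supernatant and 472 with medium. Adgre1, which encodes F4/80, read 15781 with the supernatant and 16160 with medium, and the summed signal of the 12 was 138098 with the supernatant and 135045 with medium. Of the 11 T cell markers with a probe set, 8 did not reach the floor in either condition, among them Cd3d (1.5 with the supernatant and 2.1 with medium), Cd3e (9.9 with the supernatant and 14.3 with medium), Cd3g and Thy1. The 3 T cell markers above it, Zap70, Cd28 and Cd5, summed to 639 with the supernatant and 667 with medium but lay on both sides. Zap70 read 313 with the supernatant and 208 with medium, 1.51-fold higher, whereas Cd5 read 42.8 with the supernatant and 65.9 with medium, 1.54-fold lower, and Cd28 read 283 with the supernatant and 393 with medium. Of 7 neutrophil markers 4 were measured, with a sum of 816 with the supernatant and 648 with medium. Among them S100a9, a calcium-binding protein of neutrophils, read 73.0 with the supernatant and 5.8 with medium, at least 1.90-fold higher. Of 6 dendritic cell markers 3 were measured, with a sum of 228 with the supernatant and 220 with medium, and of 4 B cell markers 2 were measured. These were Cd79b, at 54.5 with the supernatant and 57.9 with medium, and Pax5, which was under the floor with the supernatant and read 44.3 with medium. The part of other cell types in the Hspa1b difference was not tested.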

How the data were processed

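For the microarray experiment, RNA of BMDMs with apoptotic cell supernatant or with medium was labelled with biotin and hybridized to an Affymetrix mouse genome array, 1 array each. The authors deposited MAS5 signals, which give each probe set a linear intensity. Their scaling target and any filter are not given in the sources used here. Of 45101 probe sets, the array's annotation gave 34958 a single gene and 932 several genes, and 9211 were not listed in it and stay unnamed here. Symbols of 34754 probe sets were found in RefSeq's gene table of GRCm38.p6 through the Entrez identifier.

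The floor of 38.4 was the 95th percentile of the 80 receptor probe sets, taken on the array where it was higher. Log2 ratios used floored signals of each gene's brightest probe set, with thresholds of 2-fold and 1.5-fold. A ratio with 1 signal under the floor is a bound, written "at least". No test was run with 1 array per condition. The steps were tested on simulated data. Known folds were set there only in genes over 1000 with medium, a signal that Hspa1b and Hspa1a did not reach with medium. Motifs were searched in 32851 RefSeq promoter windows, and protein sequences were not used here. Tables were handled with pandas 2.3.3 and numpy 2.4.6 in Python 3.11.15, loess was fitted with statsmodels 0.14.6, and plots were drawn with matplotlib 3.10.9. The members and lists were chosen with earlier results of these data known. All 10 members are described with every probe set. Of each chaperone list, the genes at least 1.5-fold apart, the 2 farthest from 0 and the heat shock factors are named. The 9 alternatives covered scaling (median-centring, quantile normalization, loess with a span of 30%), dim signals (no floor, floors of 76.8 and 10.0, the floor as a pseudocount) and the choice of probe set (mean log2 signal of all, only those without an _s, _x or _a suffix).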

Additional observations from a re-analysis of the deposited data

How the results depend on the processing

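The member counts at 2-fold and at 1.5-fold, in both directions, were the same under all 9 alternatives. The Hspa1b log2 ratio ran from 1.34 to 1.49, that of Hspa1a from 0.81 to 0.93, and the median of the members from 0.02 to 0.17. Without suffixed probe sets Hsph1 and Hspa5 could not be read. Counts over all genes moved with the treatment of dim signals. Genes at least 2-fold higher (115 as reported) and lower (101) numbered 369 and 464 with no floor, 975 and 1158 with a floor of 10.0, 77 and 27 with a floor of 76.8, and 167 and 157 when log2 signals were averaged over probe sets. At 1.5-fold (444 higher and 535 lower as reported) they numbered 751 and 965 with no floor, 1833 and 2251 with a floor of 10.0, and 238 and 239 with a floor of 76.8. Of the 108 list medians under the alternatives 107 moved by less than the spread between probe sets. The exception was that of the small heat shock proteins, at 0.01 with a floor of 10.0. Averaging, which takes in dim probe sets as deposited, put Hspa4l (1.77-fold, all 5 probe sets above the floor) and also Hspa4, Cct8, Pfdn5 and Hspa9 at least 1.5-fold higher and Bag5 lower. Each of these 5 genes has a probe set under the floor on at least 1 array, such as one of Hspa4 at 41.2 with the supernatant and 6.1 with medium. All 5 were within 1.5-fold on every probe set above the floor on both arrays, so no fold is given for them. No paired analysis was possible because there was a single array for either condition. Dim signals limit the small heat shock proteins most, since Hspb1, Hspb2 and Hspb8 lay near the floor.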

Other observations

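Next to Hspd1 on chromosome 1, on the side away from Hspe1, lies Coq10b, which encodes a mitochondrial coenzyme Q binding protein and was looked at only as a neighbour. Its probe sets read 1083 and 1156 with the supernatant and, in the same order, 547 and 448 with medium, so that the Coq10b log2 ratios were 0.99 and 1.37 beside -0.01 for Hspd1. On the other side of the pair, Mob4, which follows Hspe1, read 3331 with the supernatant and 2804 with medium, a log2 ratio of 0.25.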
